A study of Mus musculus with 32 samples.

Results

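Klf1, Alas2, Hbb-y, Hbb-bh1, Hba-x, Hba-a1 and Epor are 7 genes of the red cell lineage, and they were followed here in the mouse kidney before and after birth. They were chosen by name as erythroid and embryonic globin genes, and the probes whose annotated symbol was one of these names were taken. All 7 were found among the 18999 named genes with a value, on 8 of the 45220 probes of the array, with 2 probes for Hbb-bh1 and 1 for each of the others. The series comprises 32 arrays, on each of which total RNA from the kidney of a C57BL/6 mouse, an inbred strain, was labelled with Cy5 and hybridised together with a universal mouse reference RNA labelled with Cy3. The kidneys came from embryonic day 19 (E19) and from postnatal days 1, 3, 5, 7, 10, 14, 21, 28 and 35 (P01 to P35), with 3 arrays at 8 of the stages and 4 arrays at P03 and P35. No transgene, deletion or treatment is named for these kidneys. A surgical protocol text attached to the samples describes ureteral obstruction, but the source names call every kidney normal and were taken as correct. Neither the number of animals nor any pooling is given in the labels, so p-values reflect only how far arrays of a stage lie apart, which may be partly technical.

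Red cells of the mouse are made in successive waves. The primitive wave starts in the yolk sac and carries embryonic hemoglobin, and the definitive wave follows in the fetal liver and then in the bone marrow and spleen, with adult hemoglobin. The transcription factor KLF1 binds CACCC boxes in the promoters of globin and other erythroid genes, and ALAS2 is the erythroid enzyme that opens heme synthesis. Kidney is a source of erythropoietin after birth and is not a site of steady red cell production.

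The promoters of 6 of the 7 members were in the RefSeq promoter table (build GRCm38.p6), and 4 are shown. They include that of the member that rose most clearly (Klf1) and that of the embryonic globin that moved between stages (Hbb-y). Those of Alas2 and Hba-a1 are shown as 2 members whose level followed the arrays more than the stages, described further on. Hbb-bh1 is another such member, and its promoter was not among the 6. Each run is the 160 bases before the annotated start, 5′ to 3′ along the gene, and capitals mark every match on either strand to 4 kinds of short motif. The motifs are CACCC, the box that KLF1 is known to bind. Next is the GATA motif, written AGATAA (bound by GATA factors) or, with another first letter, TGATAA. Then come CCAAT, the box of NF-Y and related factors, and TATAA, the core of the TATA box.
Klf1, chr8:84901822-84901981, plus strand: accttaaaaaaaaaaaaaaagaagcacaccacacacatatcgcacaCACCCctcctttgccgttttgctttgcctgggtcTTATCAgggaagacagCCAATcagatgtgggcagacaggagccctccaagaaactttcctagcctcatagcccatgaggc
Hbb-y, chr7:103853208-103853367, minus strand: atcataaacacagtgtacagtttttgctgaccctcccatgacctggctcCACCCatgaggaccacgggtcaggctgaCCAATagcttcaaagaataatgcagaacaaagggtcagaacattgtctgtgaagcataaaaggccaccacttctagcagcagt
Hba-a1, chr11:32283512-32283671, plus strand: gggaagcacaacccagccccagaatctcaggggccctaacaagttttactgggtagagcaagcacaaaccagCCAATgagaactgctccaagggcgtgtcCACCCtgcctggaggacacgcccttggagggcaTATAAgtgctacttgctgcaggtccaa
Alas2, chrX:150547257-150547416, plus strand: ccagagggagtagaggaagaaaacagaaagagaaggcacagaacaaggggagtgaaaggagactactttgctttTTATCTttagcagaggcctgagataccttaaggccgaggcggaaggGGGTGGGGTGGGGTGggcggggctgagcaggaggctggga
CACCC was found in all 6 member promoters searched, against 39.2% of the 32851 mouse promoters in windows of the same length. Klf1 and Hbb-y held 1 match each, at 114 and 111 bases before the start, Hba-a1 held 1 at 60 bases, and Alas2 held 3 adjoining matches on the opposite strand that begin 40 bases before the start. A GATA motif was found in 4 of the 6 (Klf1, Alas2, Hba-x and Epor), against 10.3% of all promoters, CCAAT in 3 (Klf1, Hbb-y and Hba-a1), against 25.6%, and TATAA in 2 (Hba-x and Hba-a1), against 15% of all promoters. These matches describe the letters in the window and are not evidence of binding.

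Values are log2 ratios of kidney to reference RNA, so a value of 0 is the level in the reference and a difference of 1 is a doubling. The ratios of different probes cannot be set against each other as amounts of RNA, and levels are therefore compared between stages within a gene. Of the 7 members, 6 were measured on 32 of 32 arrays and entered every test. Hba-x had an exact 0, read as not measured, on 19 arrays and was tested only under other settings. The median log2 ratio per array of kidney marker lists ran from 5.03 to 6.60 for proximal tubule (12 of 12 genes measured). It ran from 4.25 to 6.12 for thick ascending limb (8 of 8) and from 0.82 to 3.26 for podocytes (6 of 8). Each was above 0 on 32 of 32 arrays. The direction of the ratio was set by these lists, so they cannot check the identity of the samples. Lists of fetal liver (1.37 to 5.03), endothelium (3.49 to 4.56) and adipose tissue (0.01 to 6.05) were also above 0 on 32 of 32 arrays. The platelet list was above 0 on 2 arrays and the leukocyte list on 11. Within a stage, the mean correlation of an array with its fellow arrays over genes ran from 0.900 to 0.974, with E19 replicate 2 lowest and P10 replicate 1 and P10 replicate 2 next. The numbers of the scan images in the sample descriptions fall into 3 runs, here called image runs, of 8, 8 and 16 arrays that cross the stages. Values are given within these runs where a result depends on them.

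**Figure D1:**
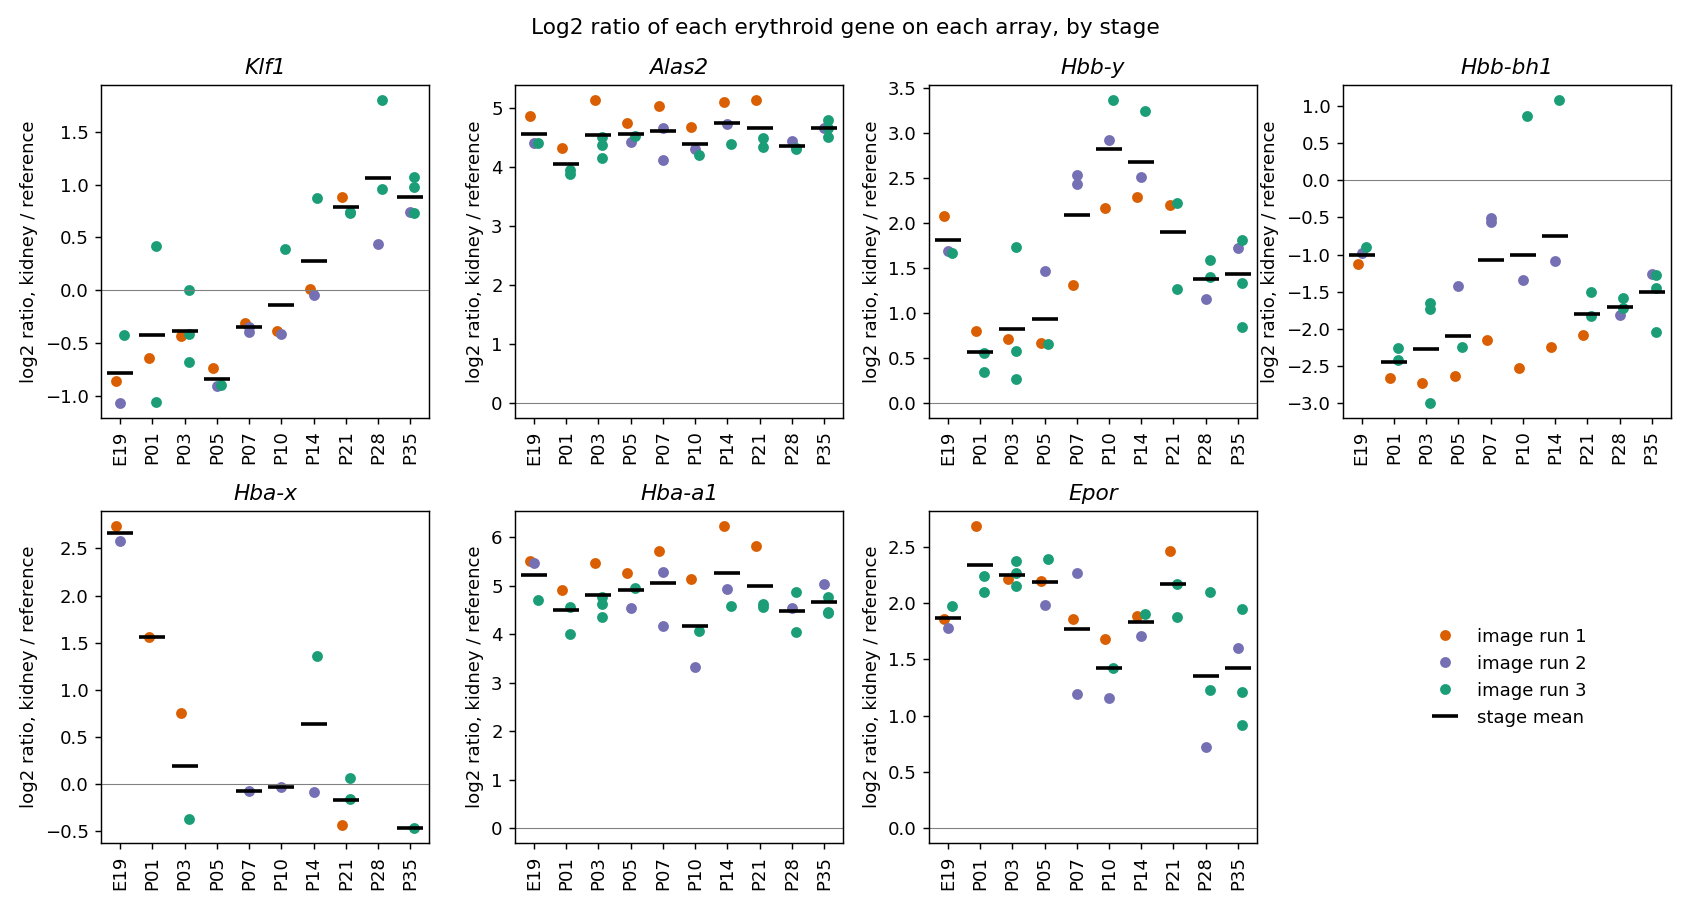
Log2 ratio of kidney to reference RNA (y axis) on each array (points, coloured by image run) at each stage (x axis), with the stage mean as a black bar, for the 7 genes. Klf1 rises after P07, Hbb-y is high from P07 to P14 and lowest at P01, and the image run 1 array has the highest Alas2 and Hba-a1 ratio in each of the 8 stages that have one.

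Over all 10 stages, Klf1, Hbb-y and Epor differed between stages, whereas Alas2, Hbb-bh1 and Hba-a1 did not pass the test. With limma's moderated F test, Benjamini-Hochberg adjusted over all genes, the adjusted p was 1.62e-05 for Klf1, 8.16e-05 for Hbb-y and 0.0146 for Epor. It was 0.231 for Hbb-bh1, 0.417 for Alas2 and 0.487 for Hba-a1. These 3 calls among 6 members tested stand beside 43.6% of all genes called by the same test, so the share of members is near that of any genes. Stage accounted for 79.6% of the sum of squares of Klf1, 75.5% of that of Hbb-y and 59.2% of that of Epor, against a median of 49.98% over 15149 genes measured on every array. For Hbb-bh1, Alas2 and Hba-a1 the share was 38.2%, 35.0% and 30.1%. In bulk kidney RNA, a change in the share of any cell type and a change in RNA of a gene per cell cannot be told apart. With the image run as a block in the limma fit, Alas2 and Hbb-bh1 also passed, with adjusted p of 0.00298 and 0.0477. The share of all genes called with that block is not given here, so the member count cannot be set beside it. With array weights, a setting under which most of all genes were called, all 6 members passed. The adjusted p was 0.0281 for Alas2, 0.0133 for Hbb-bh1 and 0.00239 for Hba-a1. Without the arrays of image run 1, Hbb-bh1 passed (limma, adjusted p = 0.0276) and Epor did not (0.135).

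Klf1, the erythroid transcription factor, rose with age. Its log2 ratio was -0.86, -0.43 and -1.06 at E19, and -0.64, -1.06 and 0.42 at P01. At P03 the 4 arrays read -0.68, -0.43, -0.0014 and -0.42, and at P05 they read -0.90, -0.73 and -0.91. All of these arrays except P01 replicate 3 lie below the level of the reference RNA. P07 gave -0.35, -0.40 and -0.31, P10 gave 0.39, -0.39 and -0.42, and P14 gave 0.87, -0.04 and 0.01. At P10 and at P14 the array of image run 3 was the high one. The log2 ratio was 0.73, 0.74 and 0.89 at P21, 0.44, 0.95 and 1.80 at P28, and 0.74, 0.73, 1.08 and 0.98 at P35. Every array of these last stages lies above the reference RNA. In order of its stage mean, Klf1 ran from P28 (1.07), P35 (0.88) and P21 (0.79) through P14 (0.28), P10 (-0.14), P07 (-0.35), P03 (-0.38) and P01 (-0.43) to E19 (-0.78) and P05 (-0.85). No step between neighbours in that order exceeded the larger of the 2 stage SDs.

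Klf1 averaged 0.88 ± 0.17 at P35 (SD, n = 4) and -0.78 ± 0.33 at E19 (SD, n = 3). The log2 change was 1.66 ± 0.30 (SE), a 3.17-fold difference, with a limma adjusted p of 7.8e-05, and 4 of 4 arrays at P35 lay above all 3 at E19. It was the single member called of 6 tested in this comparison, in which 40.2% of all genes were called and 21.2% were called higher. Within image run 2 the difference was 1.81 (1 array against 1), and within image run 3 it was 1.35 (3 arrays against 1). Comparing the late stages (the mean of P21, P28 and P35) with the early stages (the mean of E19, P01 and P03), Klf1 rose by 1.44 ± 0.18 on the log2 scale (limma adjusted p = 1.44e-07). All 10 late arrays lay above all 10 early arrays, and the difference was 1.53, 1.66 and 1.36 within image runs 1, 2 and 3. Klf1 was higher at P21 than at P07 by 1.14 ± 0.33 (limma adjusted p = 0.0168), again the single member called of 6, beside 15.3% of all genes, with 6.25% called higher. With the image run as a block this step was 0.81 with an adjusted p of 0.0651, and it did not pass without P07 replicate 2 (1.12), without P21 replicate 3 (1.09) or without image run 1 (1.11). P01 against E19, P07 against P01 and P35 against P21 gave Klf1 changes of 0.35 ± 0.33, 0.08 ± 0.33 and 0.09 ± 0.30, none past the test.

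**Figure D2:**
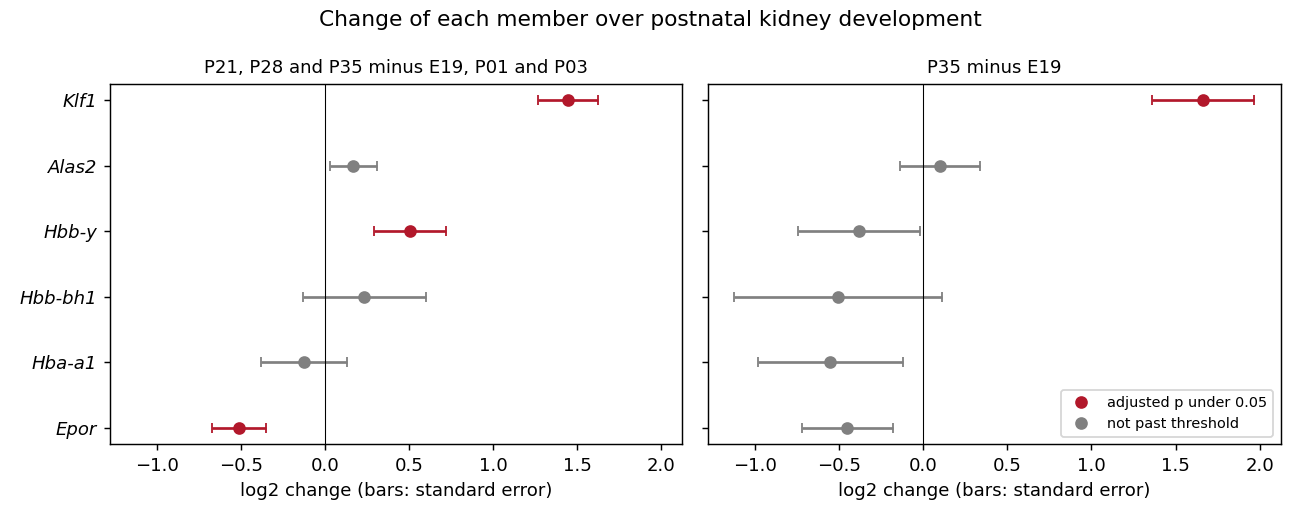
Log2 change of the 6 tested genes (points) with its standard error (bars), for the late stages against the early stages (left) and for P35 against E19 (right), with changes past the limma test in red. Klf1 stands at 1.44 and 1.66, Hbb-y and Epor pass on the left at 0.50 and -0.51, and the other changes lie within 0.6 of 0.

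Hbb-y, the embryonic epsilon-like beta globin, did not fall steadily after birth. Its log2 ratio was 2.08, 1.66 and 1.69 at E19, and 0.80, 0.55 and 0.34 at P01. At P03 it was 1.73, 0.70, 0.57 and 0.26, and at P05 it was 0.65, 0.66 and 1.46. Every P01 array lies below every E19 array, and 1 array at P03 and 1 at P05 stand above the others of their stage. It was 2.43, 2.53 and 1.31 at P07, then 3.37, 2.16 and 2.92 at P10, and 3.25, 2.51 and 2.28 at P14. Every array at P10 and P14 lies above every array at E19. At P21 the ratio was 2.22, 1.26 and 2.20, at P28 it was 1.15, 1.39 and 1.59, and at P35 it was 1.73, 0.85, 1.33 and 1.81. These later arrays overlap those of E19 except at P28, where all 3 lie below E19. By stage mean the order was P10 (2.82), P14 (2.68), P07 (2.09), P21 (1.89), E19 (1.81), P35 (1.43), P28 (1.38), P05 (0.93), P03 (0.82) and P01 (0.56), and no neighbours in it differed by more than the larger of their SDs.

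The largest fixed step of Hbb-y was between P01 and P07. It averaged 2.09 ± 0.68 at P07 and 0.56 ± 0.23 at P01 (SD, n = 3 each), a log2 change of 1.53 ± 0.39 (SE) with a limma adjusted p of 0.015, and 3 of 3 arrays at P07 lay above all 3 at P01. Hbb-y was the single member called of 6, where 7.39% of all genes were called and 4.83% were called higher. Image run 1, the single run with arrays at both stages, gave a smaller difference of 0.51 (1 array against 1), and the run as a block gave 1.42 with an adjusted p of 0.0292. The call was lost without P01 replicate 3 (1.42), without P07 replicate 1 (1.36) or without P07 replicate 2 (1.31), and when the arrays of P01 and P07 alone were fitted (adjusted p = 0.119). P01 against E19 gave -1.25 ± 0.39 (limma adjusted p = 0.119), with no overlap of the arrays and differences of -1.28 and -1.22 within image runs 1 and 3. None of the 6 members was called by limma between P01 and E19, where 1.45% of all genes were called. At an unadjusted p under 0.05 there were 2, Hbb-y and Hbb-bh1, beside 2108 of 16985 genes. The late stages were above the early stages by 0.50 ± 0.21 (limma adjusted p = 0.0481), with 2 of 10 late arrays above all early ones. Within image runs the difference was 1.01 in run 1 (1 late array against 3 early ones), -0.25 in run 2 (2 against 1) and 0.64 in run 3 (7 against 6), so that run 2 went the other way. The call was lost under 6 of the 11 other settings, with limma adjusted p between 0.0501 (a minimum of 1 array per stage) and 0.0982 (quantile normalization, 0.43), and without any one of 18 of the 32 arrays. P35 against E19 gave -0.38 ± 0.36 (adjusted p = 0.434).

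Hbb-bh1, the embryonic beta-like globin next to Hbb-y in its locus, followed a similar course with a wider spread. Its log2 ratio was -1.13, -0.89 and -0.98 at E19, -2.66, -2.25 and -2.42 at P01, and -1.74, -2.72, -1.65 and -2.99 at P03. P05 gave -2.24, -2.63 and -1.42, and P07 gave -0.50, -0.56 and -2.15. All P01 arrays lie below all E19 arrays, and at P07 the arrays of image run 2 stand apart from that of image run 1. At P10 the ratio was 0.86, -2.52 and -1.34, and at P14 it was 1.08, -1.09 and -2.24. The 2 arrays above the reference RNA, P10 replicate 1 and P14 replicate 1, both belong to image run 3 and were also the arrays with the highest Hbb-y of all 32. P21 gave -1.50, -1.82 and -2.07, P28 gave -1.81, -1.59 and -1.72, and P35 gave -1.26, -2.05, -1.45 and -1.27. By stage mean, Hbb-bh1 ran from P14 (-0.75), P10 (-0.9997), E19 (-1.001), P07 (-1.07), P35 (-1.51), P28 (-1.71), P21 (-1.80), P05 (-2.10) and P03 (-2.27) to P01 (-2.44), with no neighbours further apart than the larger SD.

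None of the 6 fixed comparisons of stages called Hbb-bh1. P01 against E19 gave -1.44 ± 0.66 (limma adjusted p = 0.355) and P07 against P01 gave 1.37 ± 0.66 (adjusted p = 0.238), each without overlap of the arrays. With array weights P01 against E19 passed for Hbb-bh1 (-1.32, limma adjusted p = 0.0358) and for Hbb-y (-1.19, adjusted p = 0.0104). This setting also called many more of all genes there than the fit without weights. P35 against E19 gave -0.51 ± 0.62 (adjusted p = 0.552), with all 4 arrays of P35 below those of E19. Its within-stage SD of 0.859 was larger than that of 96.5% of genes. The 2 probes of Hbb-bh1 differed in level on the same array: one was higher on 29 of 32 arrays, with a median gap of 1.26 and a gap of 3.11 on P14 replicate 2. After subtraction of the stage means the probes correlated with each other at r = 0.337 and with Hbb-y at 0.627 and 0.56, and neither probe passed any of the tests on its own.

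Hba-x, the embryonic zeta-like alpha globin, was measured on 13 of 32 arrays. It stood at 2.74 and 2.58 on 2 of the 3 arrays at E19, at 1.56 on 1 array at P01, and at 0.75 and -0.38 on 2 of 4 arrays at P03. The 2 arrays from before birth thus gave the highest values. It was -0.07 on 1 array at P07, -0.03 on 1 at P10, and 1.36 and -0.09 on 2 at P14. P14 replicate 1, with 1.36, is the array that also had the highest Hbb-bh1 ratio. At P21 all 3 arrays measured it, at -0.16, 0.06 and -0.43, at P35 1 of 4 did, at -0.47, and at P05 and P28 none did. With exact zeros kept as ratios of 1, the change at P35 against E19 was -1.89 ± 0.46 (limma adjusted p = 0.00203) and that of the late against the early stages -0.89 ± 0.27 (adjusted p = 0.00843). Under this setting the F test over stages (adjusted p = 0.0546) and P01 against E19 (-1.25 ± 0.49, adjusted p = 0.263) did not pass, nor did the remaining comparisons. Filled zeros make up 3 of the 4 values at P35 and 1 of the 3 at E19, so these p-values do not reflect measured spread alone. With a minimum of 1 measured array per stage, P35 against E19 gave -3.13 ± 0.63 (adjusted p = 0.00421), resting on 1 array at P35.

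Alas2, the erythroid enzyme of heme synthesis, changed little between stages. Its stage means lay between 4.05 at P01 and 4.74 at P14, and single arrays between 3.88 and 5.13. In order the means were P14 (4.74), P35 (4.66), P21 (4.65), P07 (4.60), P05 (4.56), E19 (4.56), P03 (4.54), P10 (4.39), P28 (4.35) and P01 (4.05), and only the step between P28 and P01 exceeded the larger SD. At P35 the 4 arrays read 4.66, 4.51, 4.79 and 4.66, against 4.86, 4.41 and 4.40 at E19. The ranges overlap, and the change was 0.10 ± 0.24 (limma adjusted p = 0.781). With the image run as a block, the late stages were above the early stages by 0.27 ± 0.08 (adjusted p = 0.0042) and P07 was above P01 by 0.50 ± 0.15 (adjusted p = 0.0358). In the fit without the block these changes were 0.17 ± 0.14 (adjusted p = 0.322) and 0.55 ± 0.25 (adjusted p = 0.209). The late-against-early change also passed when the arrays of image run 1 were left out (0.25 ± 0.10, adjusted p = 0.0486), and it was 0.36, 0.15 and 0.27 within image runs 1, 2 and 3. Quantile normalization turned the late-against-early change to -0.04.

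Hba-a1, an adult alpha globin, also did not pass in any fixed comparison. With array weights P35 against E19 (-0.81, limma adjusted p = 0.0352) and P01 against E19 (-1.24, 0.0101) did. At P01 against E19 that setting called many more of all genes than the fit without weights. Its arrays ranged from 3.32 to 6.23, with 5.03, 4.45, 4.76 and 4.44 at P35, against 5.50, 4.70 and 5.46 at E19. These ranges overlap, and the change was -0.55 ± 0.43 (limma adjusted p = 0.333). By stage mean the order was P14 (5.25), E19 (5.22), P07 (5.05), P21 (5.00), P05 (4.91), P03 (4.80), P35 (4.67), P01 (4.49), P28 (4.48) and P10 (4.17), with no step beyond the larger SD. The late-against-early change of -0.12 ± 0.26 turned to 0.06 with the image run as a block. Hba-a2, the near-identical adult copy, whose ratio is given here after its values were seen, averaged 4.90 ± 0.20 at P35 (SD, n = 4) and 5.26 ± 0.36 at E19 (SD, n = 3). Signal of the 2 copies may not be separable on this array.

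Epor, the erythropoietin receptor, was lower at the late stages than at the early ones. Its log2 ratio was 1.86, 1.97 and 1.78 at E19, 2.69, 2.10 and 2.24 at P01, and 2.38, 2.21, 2.27 and 2.15 at P03. P05 gave 2.39, 2.19 and 1.98, P07 gave 1.19, 2.26 and 1.86, and P10 gave 1.42, 1.68 and 1.16. All P10 arrays lie below all arrays of E19, P01, P03 and P05. P14 gave 1.90, 1.71 and 1.88, P21 gave 1.87, 2.17 and 2.46, P28 gave 0.72, 2.10 and 1.23, and P35 gave 1.60, 1.95, 0.92 and 1.21. The last 2 stages overlap the early ones through 1 array each. By stage mean the order was P01 (2.34), P03 (2.25), P05 (2.19), P21 (2.17), E19 (1.87), P14 (1.83), P07 (1.77), P10 (1.42), P35 (1.42) and P28 (1.35), and only the step from P21 to E19 exceeded the larger SD.

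The log2 change of Epor between the late and the early stages was -0.51 ± 0.16 (limma adjusted p = 0.00853). With Klf1 and Hbb-y this made 3 of 6 members called, 2 higher and 1 lower, beside 55.5% of all genes called in this comparison, 29.7% higher and 25.9% lower. Within image runs the difference was 0.21 in run 1 (1 late array against 3 early ones), -0.62 in run 2 (2 against 1) and -0.55 in run 3 (7 against 6). With array weights it was -0.30 (adjusted p = 0.055). P35 against E19 gave -0.45 ± 0.27 (adjusted p = 0.196). P35 against P21 gave -0.75 ± 0.27 (limma adjusted p = 0.229), and no member of 6 was called there by limma, beside 0.882% of all genes. Epor was the 1 member with an unadjusted p under 0.05, beside 2040 of 17230 genes. Epo, the gene of the hormone, added here after its values were seen, stood at -1.28 ± 0.69 at P35 (SD, n = 4) and -1.54 ± 0.03 at E19 (SD, n = 2).

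Within stages, the 6 members measured on every array were compared pairwise after each value had its stage mean subtracted. Of the 15 pairs, Hbb-y and Hbb-bh1 gave the largest correlation, with Pearson's r = 0.720 and Spearman's rho = 0.743 over 32 arrays. By permutation of arrays within stages the adjusted p was 0.00375 for r and 0.0106 for rho, over 15 pairs. The correlation was 0.862, 0.849 and 0.697 within image runs 1, 2 and 3, and 0.708 without the 2 arrays farthest from the median of Hbb-y. The ratios share a hybridisation and the 2 genes are related in sequence. Cross-hybridisation between them was not tested.

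Alas2 and Hba-a1 also correlated over all arrays (r = 0.660, permutation adjusted p = 0.0226; rho = 0.579, adjusted p = 0.057), yet within image runs 1, 2 and 3 r was 0.396, -0.301 and 0.396. Alas2 and Hbb-bh1 gave r = -0.565 (permutation adjusted p = 0.0355) and rho = -0.54 (permutation adjusted p = 0.057). Within the runs r was 0.062, -0.405 and -0.205. Neither relation held in every run. The array of image run 1 was the highest of its stage in 8 of 8 stages for Alas2 and for Hba-a1, which 13.2% of all genes matched. It was the highest in 7 of 8 for Hba-a2 and in 8 of 8 for Hbb-bt, an adult beta globin, both named after their values were seen, and the lowest in 7 of 8 for Hbb-bh1. In a limma fit of stage and image run, the run differed for Alas2 (adjusted p = 8.67e-06), Hba-a1 (7.81e-05), Hbb-bh1 (0.00775) and Klf1 (0.0392), beside 65.1% of all genes, and did not pass for Epor (0.266) or Hbb-y (0.396). Alas2 further followed the spread of the array, that is, the SD of all its log2 ratios, with r = 0.866 and rho = 0.735 after subtraction of stage means (permutation adjusted p = 0.00024 and 0.00312 over 6 genes), 0.656, 0.855 and 0.437 within the runs and 0.817 without the 2 farthest arrays. For Hba-a1 the correlation with the spread was 0.561 (permutation adjusted p = 0.028, with rho = 0.511, adjusted p = 0.0495) and did not hold within the runs, at -0.191, -0.385 and 0.383. For Klf1, Hbb-y, Hbb-bh1 and Epor r with the spread was 0.03, -0.19, -0.39 and 0.24, none past the test. How many of all genes, or of genes with ratios as high as those of Alas2, follow the spread was not tested.

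**Figure D3:**
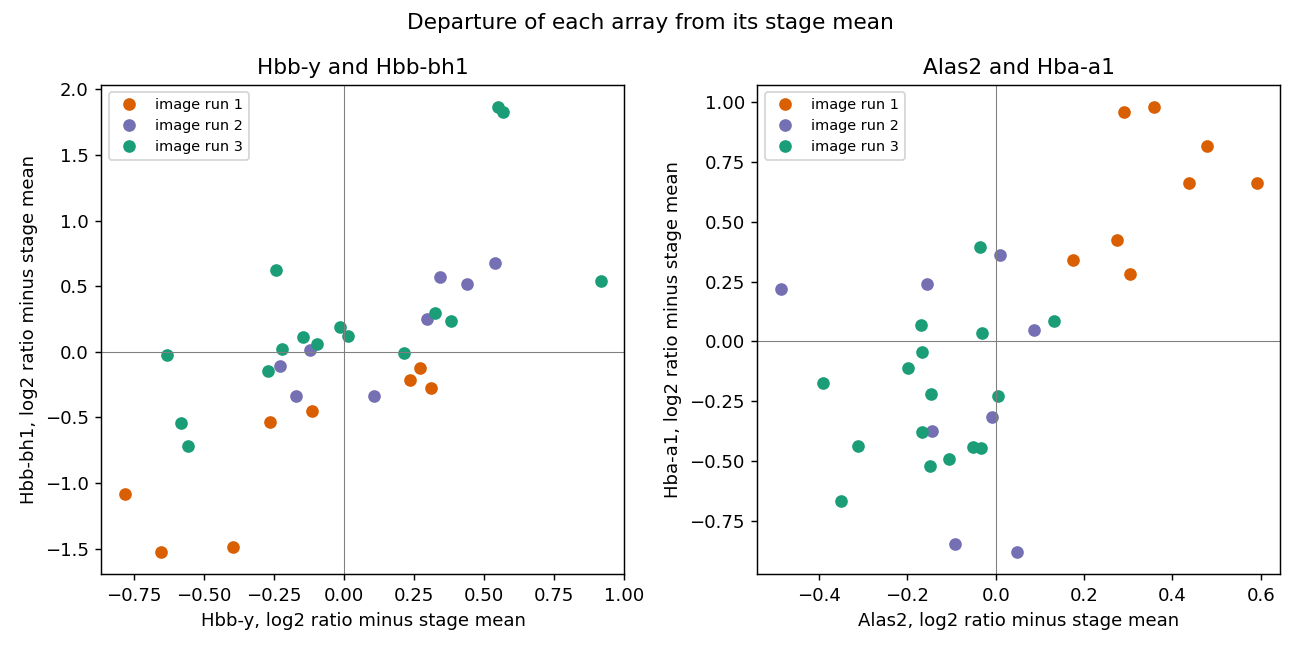
Log2 ratio minus stage mean on each array (points, coloured by image run) for Hbb-y (x axis) against Hbb-bh1 (y axis) on the left and Alas2 (x axis) against Hba-a1 (y axis) on the right. The left relation is seen within each run (r of 0.862, 0.849 and 0.697), whereas on the right the run 1 arrays lie apart at the upper right and r within runs is 0.396, -0.301 and 0.396.

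The genes whose ratios ran most like each member over the arrays were ranked by Pearson's r without subtraction of stage means, as a description. For Klf1 they were Trim7 (0.920), Herpud1 (0.913) and Ly6c1 (0.912), for Alas2 Kif12 (0.892), Cryzl2 (0.888) and Ckmt1 (0.872), and for Epor Sdcbp2 (0.788), Aqp5 (0.770) and Zfp668 (0.768), each over 32 arrays. For Hbb-y they were Thbd (0.810), Ppic (0.795) and Hbb-bh1 (0.769), and for Hbb-bh1 they were Zcchc8 (0.789), Hbb-y and Cyria (0.756). For Hba-a1 they were Hba-a2 (0.847), Cox17 (0.820) and Nfkb2 (0.817). For Hba-x, over 13 arrays, they were Pdyn (0.879), Slc1a3 (0.868) and Col11a2 (0.864). Among the members, Hbb-y and Hbb-bh1 alone appear in each other's 3.

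Further lists of genes were followed at P35 against E19, where 21.2% of all genes were called higher and 19% lower, and in the late against the early stages, where 29.7% were called higher and 25.9% lower. The globin list holds the other hemoglobin genes and also neuroglobin, myoglobin and cytoglobin, which are not genes of the red cell. Of its 7 tested genes, none passed limma's test at P35 against E19, with a median change of -0.30, against 0.06 over all genes. At an unadjusted p under 0.05 there was 1, beside 8100 of 17119 genes. Hbq1b, a theta globin, was the single hemoglobin gene of the list called in the late against the early stages, with a change of 0.79 ± 0.29 (limma adjusted p = 0.0227). The other calls were neuroglobin (Ngb) with 0.41 ± 0.16, myoglobin (Mb) with -1.05 ± 0.32 and cytoglobin (Cygb) with -0.64 ± 0.17 (limma adjusted p of 0.0258, 0.00705 and 0.00183). Of 11 heme synthesis genes other than Alas2, 6 rose and none fell at P35 against E19 (21.2% of all genes higher, 19% lower), with a median change of 0.73. The largest were Uros, uroporphyrinogen III synthase, with 2.21 ± 0.24, Alas1, the housekeeping counterpart of Alas2, with 1.76 ± 0.25, Fech, which inserts iron, with 1.71 ± 0.20, and Abcb6, a porphyrin transporter, with 0.99 ± 0.17 (limma adjusted p between 5.01e-08 and 4e-05). In the late against the early stages 9 of the 11 rose, beside 29.7% of all genes, and none fell. Tubule cells also use this pathway, and the part of each cell type was not tested.

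Of 17 erythroid transcription factors, 1 rose and 7 fell at P35 against E19, beside 21.2% of all genes higher and 19% lower, with a median change of -0.60 against 1.66 for Klf1. The largest changes were -3.09 ± 0.40 for Nfe2, -2.03 ± 0.18 for Lyl1, -1.98 ± 0.35 for Myb and -1.59 ± 0.20 for Zfpm1, the cofactor FOG of GATA factors (limma adjusted p between 1.38e-09 and 4.68e-05). In the late stages 2 rose and 6 fell against the early stages, beside 29.7% and 25.9% of all genes. Many of these factors also act in blood stem cells, white cells and the precursors of platelets. Markers of leukocytes had 3 of 10 tested genes lower and none higher at P35 than at E19 (19% of all genes lower), the median ratio per array of the list running from -1.04 to -0.66 at P35, against -0.02 to 0.63 at E19. The change was -4.61 ± 0.88 for S100a8, -3.82 ± 0.78 for Camp and -2.39 ± 0.46 for S100a9, which are neutrophil proteins. The other 7 tested genes did not pass, among them Ptprc, Cd3e and Lyz2. The list medians rest on the genes measured on each array. Ngp, for example, was measured on 2 arrays at E19 (mean 4.05) and on 0 at P35. In the late against the early stages 4 leukocyte genes were lower and 1, Lyz2, was higher, beside 25.9% and 29.7% of all genes. Platelet markers had 1 of 9 lower, a share below that of all genes, Pf4, with a change of -1.86 ± 0.24, with list medians of -1.34 to -0.49 at P35 and -1.28 to -1.001 at E19. Of 7 tested fetal liver markers, 2 were lower and 1 higher at P35 than at E19, the median ratio of the list running from 2.98 to 3.80 at P35, against 4.00 to 4.74 at E19. Afp, alpha-fetoprotein, averaged -1.44 ± 0.57 at P35 (SD, n = 4) and 4.63 ± 0.13 at E19 (SD, n = 3), a change of -6.06 ± 0.34 (limma adjusted p = 5.9e-13). Ahsg, fetuin A, changed by -5.96 ± 1.40 and Apoa2, an apolipoprotein, by 1.48 ± 0.49 (limma adjusted p of 0.00118 and 0.0183), while Alb, albumin, stood at 4.07 ± 0.35 at P35 (SD, n = 4) and 4.24 ± 0.37 at E19 (SD, n = 3). The part of leukocytes, platelets or liver cells in the changes of the members and of the transcription factors was not tested.

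Of 21 tested genes of the red cell membrane and its enzymes, 9 rose and 5 fell at P35 against E19 (median change 0.50), beside 21.2% of all genes higher and 19% lower, so the share that fell is near that of any genes. The blood group genes Kel and Rhd fell, with changes of -2.96 ± 0.53 and -2.44 ± 0.67, while Pklr, the pyruvate kinase of liver and red cells, rose by 1.86 ± 0.41 and Aqp1, a water channel also of the proximal tubule, by 1.62 ± 0.23 (limma adjusted p between 2.05e-06 and 0.00439). Of 19 iron handling genes, 7 rose and none fell (median 0.51), beside the same shares of all genes, with Fth1, the ferritin heavy chain, at 3.37 ± 0.30 (limma adjusted p = 1.19e-09). In the late against the early stages 10 iron handling genes rose and 2 fell (29.7% and 25.9% of all genes). Fth1 rose there by 2.53 ± 0.18 and Steap3, an iron reductase, by 1.38 ± 0.19, and the 2 that fell were Erfe, the erythroblast hormone erythroferrone, with -1.41 ± 0.33, and Hmox1, heme oxygenase, with -0.87 ± 0.17 (limma adjusted p between 3.38e-12 and 0.000769). Hmox1 averaged -1.69 at E19, -0.16 at P01 and -0.62 at P03, against -1.64, -1.87 and -1.56 at P21, P28 and P35. Its level at E19 was thus near that of the late stages. Of 21 genes of Epo signalling and oxygen sensing, 5 rose and 3 fell at P35 against E19 (median 0.22), near the shares of 21.2% and 19% of all genes. Stat5a, a transducer of the receptor, rose by 1.56 ± 0.19, and Socs2, a feedback inhibitor, fell, with a change of -1.05 ± 0.31 (limma adjusted p of 2.87e-07 and 0.0073). Proximal tubule markers had 5 of 12 higher and none lower in the same comparison. Of 5 tested adipose markers, 4 were higher and 1 lower, with the largest change for Adipoq at 5.56 ± 1.27 (limma adjusted p = 0.000954). The median ratio per array of the adipose list ran from 2.31 to 5.57 at P35, against 0.01 to 0.37 at E19. The part of any of these cell types in the list changes was not tested.

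**Figure D4:**
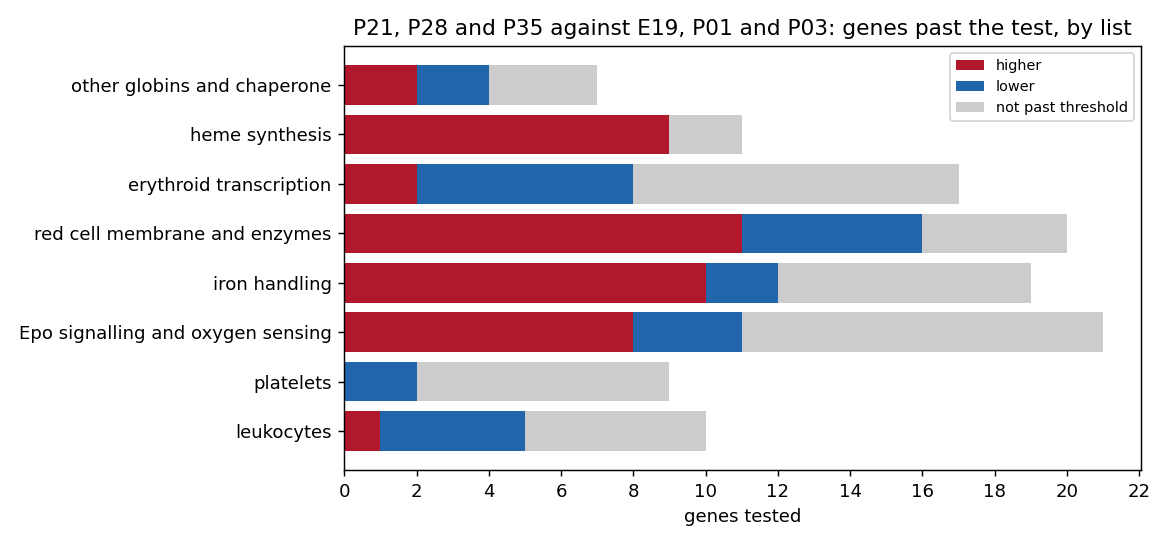
Number of genes tested in each list (bar length, x axis) that were higher (red), lower (blue) or not past the limma test (grey) in P21, P28 and P35 than in E19, P01 and P03. Heme synthesis has 9 of 11 higher and none lower, erythroid transcription has 2 higher and 6 lower of 17, and the other globins have 2 each way of 7.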

How the data were processed

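The authors' deposited table holds a single log10 ratio for each probe on each array, a scale inferred from the range of the values. How the authors corrected background and normalized dyes is not given in the sources used here. For tests, ratios were converted to log2 (factor 3.32). If the deposited table is in log2 instead, the sizes of all changes shrink by that factor, and signs and tests are as given. The kidney marker lists lie above the reference, which set the direction. No dye swap is named, and precision rests on how many arrays a stage has. An exact 0 was read as not measured. Gene values are the mean of the probes measured on all arrays, otherwise the probe measured on most. Gene names come from the platform annotation, in which 33653 probes had 1 symbol, 56 several and 11511 none. limma 3.58.1 in R 4.3.3 fitted the 10 stages together, requiring 2 measured arrays in each stage compared, and p-values were Benjamini-Hochberg adjusted over all genes at 0.05. Correlations used 1e+05 permutations within stages. Named genes outside the members were, per list and comparison, up to 4 called genes with the largest change, and the 3 most alike by r. The members and lists were chosen with earlier results of these data known. Alternatives were the treatment of zeros and probes, quantile or median normalization, array weights, image run as a block, the stages fitted, the minimum of arrays and leaving out each array. Leaving out image run 1 was chosen after seeing the data.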

Additional observations from a re-analysis of the deposited data

How the results depend on the processing

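No paired analysis was possible because replicate numbers only name arrays. Members called over all stages were 5 with the image run as a block and 6 with array weights, which called 13114 genes. The fit without either called 7126 of 16335 genes over all stages and 40.2% of all genes at P35 against E19. The count with the run block over all stages and the shares under the settings named next are not given here. At P35 against E19, 2 members were called with exact zeros kept, with a minimum of 1 array per stage (Hba-x each time) and with array weights. At P01 against E19, array weights called 3 members and 2847 genes, the run block 681 genes, the stages alone 0 (limma; 1439 at an unadjusted p under 0.05) and no image run 1 gave 54, against 246 in the fit of all stages. At P07 against P01, 2 members were called by limma with the run block and 0 with the stages alone. With the stages alone, 2 had an unadjusted p under 0.05, beside 2483 of 16738 genes. Genes called were 142 with the stages alone, 2014 with array weights and 698 without image run 1, against 1237 in the fit of all stages. The run block moved this gene count less, as a ratio, than these settings did, and its own gene count is not given here. At P21 against P07, no member (0) was called by limma with the run block or without image run 1, and the stages alone called 1634 genes. At an unadjusted p under 0.05 there was 1, Klf1, in each of the 2 settings without a member called. Beside it stood 5367 of 16881 genes with the run block and 4310 of 16014 without image run 1. At P35 against P21, genes called were 380, 4, 1184 and 21 with the run block, the stages alone, array weights and no image run 1. Signs turned, none for a called value: with quantile normalization Alas2 gave -0.20 at P35 against E19, -0.037 late against early and -0.043 at P35 against P21; subtracting array medians gave Alas2 -0.011 there; the run block gave Hba-a1 0.059 late against early and Hbb-bh1 -0.033 at P35 against P21; array weights gave Alas2 -0.023 at P21 against P07; no image run 1 gave Klf1 -0.053 at P07 against P01 and Hba-a1 0.082 at P35 against P21. Leaving out 1 array, Klf1 kept its call at P35 against E19 (1.52 to 1.84) and late against early (1.32 to 1.58). Ranges that crossed 0 were Klf1 at P01 against E19 (-0.069 to 0.67) and at P07 against P01 (-0.24 to 0.50), Alas2 (-0.19 to 0.27), Hbb-y (-0.59 to 0.12) and Hba-a1 (-0.50 to 0.27) at P21 against P07, and Alas2 (-0.15 to 0.24) and Hba-a1 (-0.54 to 0.082) at P35 against P21. Members called ranged from 0 to 1 at P07 against P01 and at P21 against P07, and genes called from 53 to 259 at P01 against E19, 732 to 1302 at P07 against P01 and 47 to 237 at P35 against P21. The cause of these changes was not tested.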
